A study of Homo sapiens with 4 samples.

Results

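The collagen genes were taken as every gene of the deposited count table whose symbol was COL, a number, the letter A and a number, which gave 44 of 27011 genes. Of these, 36 had 20 or more counts summed over the 4 libraries, and 16 of the 36 also belonged to the gene selection that the study tested. RNA had been sequenced from HEK293T cells, a line derived from human embryonic kidney, in 2 wild-type libraries (WT) and 2 libraries of an edited line without functional HELZ (Helz-null; HELZ-null in the sample labels). HELZ is a putative RNA helicase with a zinc finger that associates with the CCR4-NOT complex, which shortens the poly(A) tails of mRNAs, and the comparison asks which mRNAs change in level without it. The Helz-null line was made with Cas9 and a guide against a HELZ exon, which left a small deletion that shifts the reading frame. Both lines were plated one day before harvest and received no treatment. The sources used here do not say whether the edited line was 1 clone, so any difference between the lines that arose apart from HELZ cannot be told apart from the genotype.

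Collagens are the main structural proteins of the extracellular matrix. Their alpha chains are coiled around each other into rigid helices, either as copies of one chain or as fixed mixtures of chains, and the assembled molecules form fibrils, sheet-like networks or beaded filaments, sit on the surface of fibrils, or span the plasma membrane. Fibroblasts and other connective tissue cells are the best known producers, whereas epithelial cells make mainly the collagens of the basement membrane, the thin sheet on which they rest. The genes were therefore grouped into 9 structural classes, and the values below are mRNA levels in bulk RNA, in which fewer cells with an mRNA and less of it per cell cannot be told apart.

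Library totals ranged from 41745401 to 70464140 counts, and levels are given as CPM, counts per 1000000 counts of the library's TMM-scaled size. On that scale 3 counts, the level that a count of 0 allows if each count is an independent fragment, corresponded to 0.0421 to 0.0718 CPM. The column totals are larger than the numbers of mapped reads given in the study's methods, so both mates of a pair may have been counted, and a floor or a filter on counts would then stand for fewer fragments. HELZ mRNA itself was at 97.6 and 102.0 CPM in WT and at 36.1 and 37 CPM in Helz-null cells, a log2 fold change of -1.44 ± 0.042 (SE; edgeR, adjusted p = 2.13e-27), so the targeted gene was lower in both libraries labelled as null and was not absent. The 7 markers of HEK293T cells examined were at 1 CPM or more in every library, although their levels were not all alike in the lines. KRT8 was at 26.8 and 29.4 CPM in WT and 13.6 and 14.6 CPM in Helz-null cells. LHX1 was at 2.91 and 2.63 against 6.43 and 4.78 CPM, and NEFM at 235.6 and 225.9 against 428.4 and 424.8 CPM. The other markers differed less. PAX2 was at 5.07 and 5.27 against 6.9 and 6.34 CPM, and KRT18 at 64.4 and 63.4 against 57.1 and 56.9 CPM. VIM was at 1050 and 1051 against 956.2 and 943.1 CPM, and CDH2 at 92 and 98.5 against 98 and 97.7 CPM. Of 8 fibroblast markers, 2 (PDGFRA and FBLN1) were at 1 CPM or more in every library. DCN and FAP, defining fibroblast genes, had 0 counts in all 4 libraries. The summed fibroblast markers, almost all of it FBLN1, were at 58.1 and 62.3 CPM in WT and 70.2 and 70.5 CPM in Helz-null cells, and the part of either set of markers in the collagen changes was not tested.

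HEK293T cells made a small but broad set of collagen mRNAs. Together the 44 genes took 0.07% and 0.0746% of all counts in WT and 0.0773% and 0.0761% in Helz-null cells. On the FPKM scale, which is CPM divided by the gene's length in kilobases and so allows genes to be compared, COL6A1 was highest, followed in WT by COL18A1, COL4A2, COL6A2, COL2A1 and COL4A1. COL6A1, COL4A2, COL18A1, COL6A2 and COL4A1 held between 69.8% and 70.9% of the summed collagen FPKM in every library. The order of the leading genes was not the same in both lines, because COL4A2 lay below COL18A1 in both WT libraries and above it in both Helz-null libraries.

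**Figure D1:**
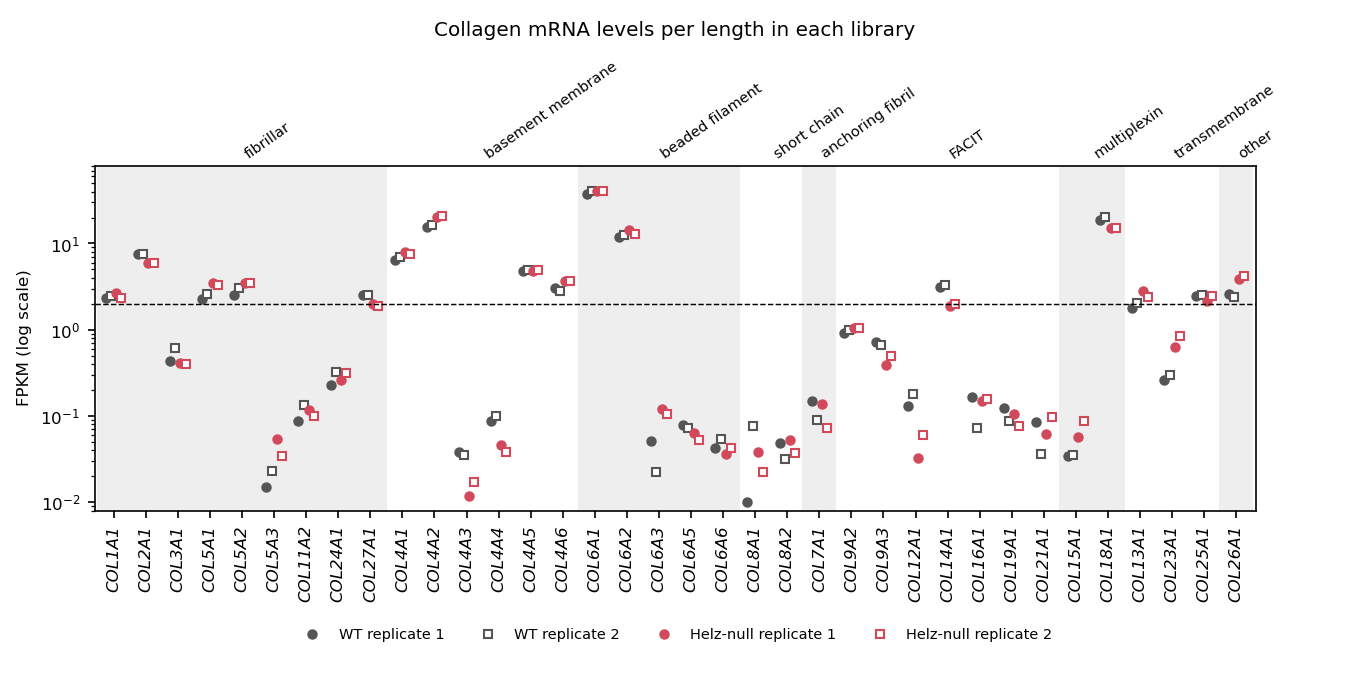
FPKM on a log axis for the 36 collagen genes with 20 or more counts, grouped by structural class, with 1 point for each library (grey, WT; red, Helz-null; circles, replicate 1; squares, replicate 2). The dashed line is at an FPKM of 2, the study's selection threshold; COL6A1 is highest at 37 to 41 FPKM, and most genes under the line stay below 1.

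Collagen mRNAs changed in both directions in Helz-null cells. Of the 16 collagen genes in the study's selection, 8 were up-regulated, 4 were down-regulated and 4 did not pass the test at a false discovery rate under 0.005, when 13.9% of all 10978 selected genes were up-regulated and 15.5% down-regulated. The median log2 fold change of the 16 was 0.13, compared with -0.001 for all selected genes, and it moved with single libraries and with GC content, to 0.075 without WT replicate 1, 0.083 without Helz-null replicate 1, 0.20 without Helz-null replicate 2 and 0.068 with GC offsets. In a fit over all 16876 genes with 20 or more counts, where 9.32% were up-regulated and 10.9% down-regulated, 9 of the 36 collagen genes were up-regulated, 5 were down-regulated and 22 were not called. Their median there was 0.060, beside -0.002 for all genes fitted. For every one of the 36, each group held at least 10 counts. The study's selection at an FPKM above 2 was less even, since 3 called genes lay below 2 on average in 1 group, COL13A1 in WT (1.92 FPKM) and COL14A1 and COL27A1 in Helz-null cells (1.93 and 1.95 FPKM). A gene at this threshold could enter through the group where it was high, so the counts and the median of the 16 describe the selected members only. The count of 8 rested in part on single libraries, because it was 4 without WT replicate 1 and 5 without Helz-null replicate 1, whereas the same 4 genes stayed down-regulated each time.

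**Figure D2:**
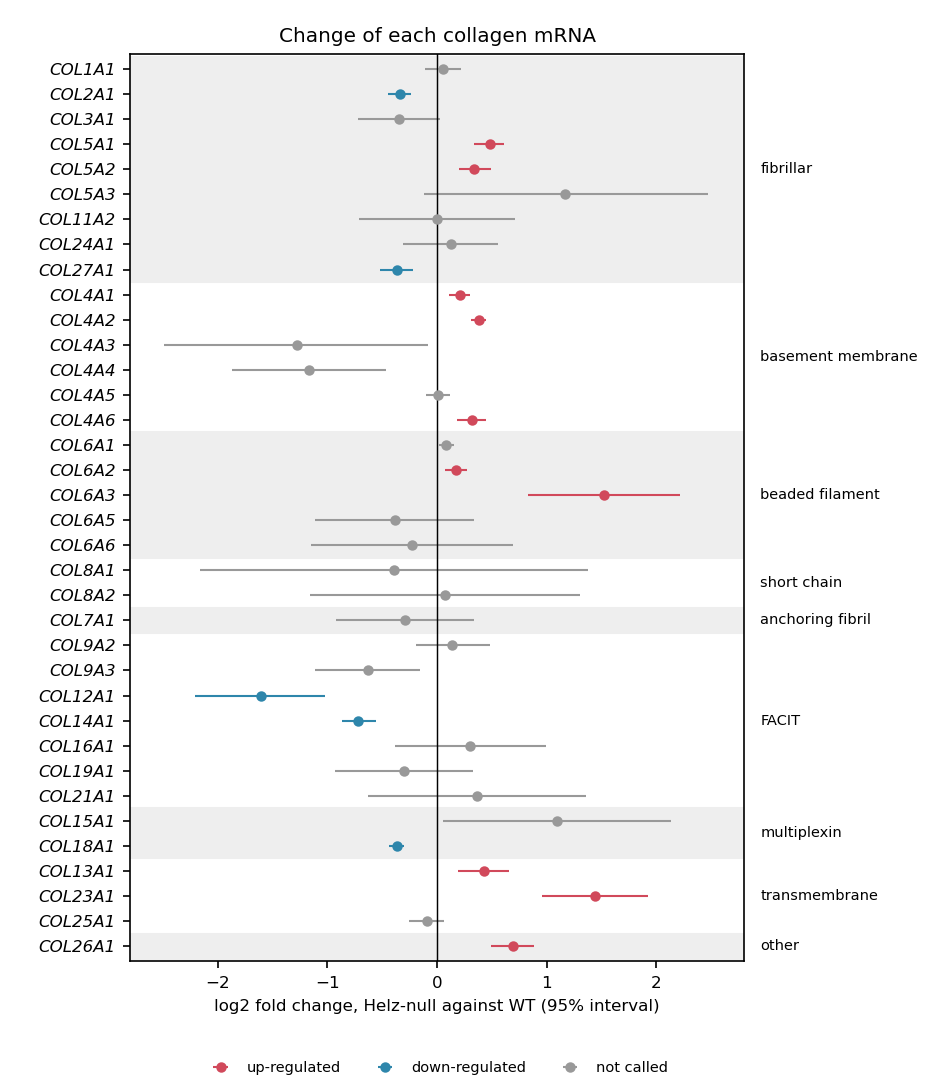
Log2 fold change of each collagen mRNA in Helz-null against WT cells with its 95% interval (red, up-regulated; blue, down-regulated; grey, not called), by class. The called genes lie on both sides of 0, from -1.61 for COL12A1 to 1.52 for COL6A3, and the intervals are wide for weakly expressed genes such as COL8A1.

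The type IV collagens are the network formers of basement membranes. Of the 6 genes, 3 were up-regulated (COL4A1, COL4A2 and COL4A6), 0 were down-regulated, and 3 were not called, beside 9.32% up-regulated and 10.9% down-regulated of all genes with 20 or more counts. Their summed FPKM was 29.9 and 31.4 in WT and 36.9 and 37.1 in Helz-null cells, with no overlap between the groups, and COL4A1 and COL4A2 made up most of each sum. These genes lie in the genome as pairs that start next to each other and are read in opposite directions, COL4A1 with COL4A2, COL4A3 with COL4A4 and COL4A5 with COL4A6. Members of a pair therefore share part of the DNA around their start sites, which is shown here because the members of a pair did not all behave alike. In the RefSeq windows of GRCh38.p14 (250 bases before the start of the plus-strand gene to 50 after it, printed 5' to 3' on the plus strand), capitals mark the bases that also fall in the window of the minus-strand partner.
COL4A2, shared with COL4A1, chr13:110307034-110307333: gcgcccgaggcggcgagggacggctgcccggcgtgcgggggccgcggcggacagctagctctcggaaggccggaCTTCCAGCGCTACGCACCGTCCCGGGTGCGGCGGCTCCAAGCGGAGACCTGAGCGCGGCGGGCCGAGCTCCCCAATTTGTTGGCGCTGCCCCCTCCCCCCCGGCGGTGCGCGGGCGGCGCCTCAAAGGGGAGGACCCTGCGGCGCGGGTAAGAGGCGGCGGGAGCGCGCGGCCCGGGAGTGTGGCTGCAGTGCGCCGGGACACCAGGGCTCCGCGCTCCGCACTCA
COL4A5, shared with COL4A6, chrX:108439588-108439887: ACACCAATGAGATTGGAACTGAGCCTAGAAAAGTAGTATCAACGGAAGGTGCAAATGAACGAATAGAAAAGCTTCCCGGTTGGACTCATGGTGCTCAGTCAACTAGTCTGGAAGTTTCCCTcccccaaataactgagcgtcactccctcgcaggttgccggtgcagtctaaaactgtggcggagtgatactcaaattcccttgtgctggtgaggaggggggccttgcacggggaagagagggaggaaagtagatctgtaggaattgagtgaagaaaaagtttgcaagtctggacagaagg
COL4A3, shared with COL4A4, chr2:227164374-227164673: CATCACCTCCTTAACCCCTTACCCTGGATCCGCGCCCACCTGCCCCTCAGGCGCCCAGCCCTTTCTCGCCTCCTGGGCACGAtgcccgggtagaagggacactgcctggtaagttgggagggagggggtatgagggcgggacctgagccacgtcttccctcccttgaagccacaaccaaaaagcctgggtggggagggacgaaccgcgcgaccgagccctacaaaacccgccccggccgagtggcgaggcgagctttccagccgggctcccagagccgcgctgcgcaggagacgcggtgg
The start sites were 127 bases apart in the COL4A1 and COL4A2 pair, 380 in the COL4A5 and COL4A6 pair and 419 in the COL4A3 and COL4A4 pair, so that 226, 121 and 82 bases were shared. GC content of the windows was 77.7%, 49.3% and 67.7% in the same order, beside a median of 58.7% over all 35116 RefSeq windows. Searched on both strands, the letters TATAAA, present in 11.5% of all windows, occurred in none of the 3. CCAAT, present in 34.6% of windows, occurred at 1 position in the COL4A2 window and 2 in the COL4A5 window, and GGGCGG, present in 45% of windows, at 1 position in the COL4A2 window and 2 in the COL4A3 window. These matches describe letters and not binding sites. Windows were available for 32 of the 44 collagen genes.

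COL4A1 and COL4A2 encode the chains of the ubiquitous type IV network and lie on chromosome 13 (COL4A2 at chr13:110958159-111165556 of GRCh37). COL4A2 was at 96.2 and 104.3 CPM in WT and at 127.7 and 131.7 CPM in Helz-null cells, and COL4A1 at 48.2 and 51.6 against 59.4 and 55.6 CPM. For each gene both Helz-null libraries lay above both WT libraries. COL4A2 rose by 0.38 ± 0.036 on the log2 scale (SE; edgeR, adjusted p = 2.47e-11) and COL4A1 by 0.21 ± 0.047 (edgeR, adjusted p = 3.91e-04). The COL4A1 call was lost without WT replicate 1 or without Helz-null replicate 1, at a log2 fold change of 0.16 each time. The antisense transcript COL4A2-AS1, whose exons overlap 81 bases of COL4A2 exons, had 65 and 54 counts in WT and 73 and 127 in Helz-null libraries and was not called. The kit did not mark strand, so reads of that stretch may come from either gene, and use of strand in the counting was not stated.

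COL4A5 and COL4A6, next to each other on the X chromosome, encode chains that assemble together in basement membranes such as those of the kidney and of smooth muscle. COL4A5 was at 31.6 and 31.7 CPM in WT and 31.5 and 32 CPM in Helz-null cells, a log2 fold change of 0.007 with a 95% interval from -0.10 to 0.12. COL4A6 was at 21 and 19.3 CPM in WT and 25.5 and 25 CPM in Helz-null cells, and rose by 0.32 ± 0.066 (SE; edgeR, adjusted p = 1.31e-04). The 20 nearest tested genes around COL4A5 and COL4A6, within 4.61 Mb, had median log2 fold changes of 0.32 and 0.31, so COL4A6 moved as its neighbourhood did and COL4A5 lay below it. Minus that median, COL4A6 was at 0.004 and COL4A5 at -0.31. Whether the level of this region of the X chromosome bears on the COL4A6 call was not tested further.

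COL4A3 and COL4A4, which encode chains of the mature glomerular basement membrane, were low. COL4A3 had 20 and 12 counts in WT and 4 and 10 in Helz-null libraries. The exons of COL4A3 share 838 bases with MFF-DT on the other strand, which was not among the genes counted. Some of the COL4A3 counts may therefore come from MFF-DT. COL4A4 had 58 and 43 counts against 20 and 28. Both genes were lower in both Helz-null libraries once scaled, and neither passed the test. The log2 fold change was -1.17 for COL4A4, with a 95% interval from -1.87 to -0.47 (edgeR, adjusted p = 0.0083), and -1.28 for COL4A3, with an interval from -2.49 to -0.08 (edgeR, adjusted p = 0.097). COL4A4 was called down-regulated when every gene with 1 or more counts entered the fit.

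Ratios of partner chains were taken within each library, where depth and scaling cancel. The FPKM of COL4A2 was 2.38 and 2.41 times that of COL4A1 in WT and 2.56 and 2.82 times in Helz-null cells. The COL4A6 to COL4A5 ratio was 0.629 and 0.576 in WT and 0.764 and 0.738 in Helz-null cells. Both ratios were higher in the Helz-null libraries than in either WT library, and with 2 libraries a group the difference was not tested. The ratio of COL4A4 to COL4A3 ranged from 2.19 to 3.91 over the 4 libraries and the groups overlapped.

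The type VI collagens form beaded filaments that link cells to the surrounding matrix, and an assembled unit holds the chains of COL6A1, COL6A2 and COL6A3 or a COL6A3-like chain. COL6A1, on chromosome 21 (chr21:47401684-47424964, GRCh37), was the most abundant collagen mRNA per length, at 37 and 40.2 FPKM in WT and 41 and 40.5 FPKM in Helz-null cells. Its log2 fold change of 0.084, with a 95% interval from 0.02 to 0.15, did not pass the threshold (edgeR, adjusted p = 0.041), and its call changed with the setting. It passed without WT replicate 2, at 0.14, and when libraries were scaled by their totals alone, at 0.12, but was at 0.023 without WT replicate 1, at 0.032 with GC offsets and at -0.006 minus the median of its 20 nearest tested genes. The neighbouring COL6A2, in tandem with it, was at 11.8 and 12.6 FPKM in WT and 14.5 and 13 FPKM in Helz-null cells. COL6A2 rose by 0.17 ± 0.049 (SE; edgeR, adjusted p = 0.004), the weakest of the calls. It was not called in the fit over all genes with 20 or more counts (edgeR, adjusted p = 0.0081), nor with DESeq2, with GC offsets, with the filterByExpr filter, or without WT replicate 1 or Helz-null replicate 1. Leaving out 1 library moved its value between 0.091, without Helz-null replicate 1, and 0.26, without Helz-null replicate 2. The ratio of COL6A1 to COL6A2 was 3.13 and 3.19 in WT and 2.82 and 3.13 in Helz-null cells.

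COL6A3, which supplies the largest type VI chain, was far less abundant than its partners in every library. It had 35 and 10 counts in WT and 55 and 80 in Helz-null libraries, which is 0.0509 and 0.0224 FPKM against 0.122 and 0.105 FPKM. The FPKM of COL6A1 was 725.7 and 1798 times that of COL6A3 in WT, and 337.3 and 386.3 times in Helz-null cells. COL6A3 rose by 1.52 ± 0.34 (SE; edgeR, adjusted p = 6.65e-04), the highest log2 fold change of the called collagen genes, but the WT libraries differed between themselves and the call was lost without WT replicate 2, at 1.14, and with DESeq2. Without WT replicate 1 the value was 2.31. The COL6A3-like chains COL6A5 and COL6A6, which lie side by side on chromosome 3, had totals of 134 and 81 counts over the 4 libraries. Neither was called, with log2 fold changes of -0.38 (95% interval from -1.11 to 0.34) and -0.23 (from -1.15 to 0.69).

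The fibrillar collagens, which build the cross-striated fibrils of connective tissue, included genes called in each direction. Of 11 genes, 9 had 20 or more counts, and 2 of these were up-regulated (COL5A1 and COL5A2), 2 were down-regulated (COL2A1 and COL27A1) and 5 were not called, when 9.32% of all genes fitted were up-regulated and 10.9% down-regulated. With 9 genes, these shares correspond to about 1 gene in each direction. The summed FPKM of the class was 17.9 and 19.4 in WT and 18.4 and 17.8 in Helz-null cells, which overlapped. COL5A1 and COL5A2 encode the chains of type V collagen, a minor component that regulates the diameter of type I fibrils. COL5A1 was at 19.3 and 22.4 CPM in WT and at 29.9 and 27.8 CPM in Helz-null cells, and rose by 0.48 ± 0.067 (SE; edgeR, adjusted p = 2.21e-07). COL5A2 was at 17.4 and 21.1 CPM in WT and at 24.3 and 23.9 CPM in Helz-null cells, and rose by 0.34 ± 0.073 (edgeR, adjusted p = 1.75e-04). The COL5A2 value depended on the WT library used, since it was 0.20 and not called without WT replicate 1. COL5A1 and COL5A2 lie on different chromosomes (9 and 2), and their FPKM ratio was 0.904 and 0.864 in WT and 1 and 0.945 in Helz-null cells. COL5A3, a further type V chain, had 6 and 6 counts in WT and 14 and 15 in Helz-null libraries and was not called, at 1.17 with a 95% interval from -0.12 to 2.47. Its exons share 270 bases with a gene on the other strand that was not among the genes counted.

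COL2A1, the chain of the main fibrillar collagen of cartilage, was the most abundant fibrillar collagen mRNA per length, at 7.47 and 7.62 FPKM in WT and 5.89 and 5.97 FPKM in Helz-null cells. COL2A1 fell by 0.34 ± 0.054 on the log2 scale (SE; edgeR, adjusted p = 1.42e-06). COL27A1, which encodes a fibrillar collagen of developing cartilage, was at 2.51 and 2.53 FPKM in WT and at 2 and 1.9 FPKM in Helz-null cells, and fell by 0.37 ± 0.073 (edgeR, adjusted p = 5.84e-05). In both genes the replicates of a group lay close together and the groups did not overlap.

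The chains of type I collagen, the major collagen of bone, skin and tendon, were strongly unequal. COL1A1 was at 14 and 14.5 CPM in WT and 15.6 and 14 CPM in Helz-null cells, with a log2 fold change of 0.054 and a 95% interval from -0.11 to 0.22. COL1A2, whose chain assembles with that of COL1A1 in the common form of type I collagen, had 0 counts in 3 libraries and 3 counts in Helz-null replicate 2. COL3A1, the type III chain of elastic tissues, was at 2.4 and 3.37 CPM in WT and 2.25 and 2.22 CPM in Helz-null cells and was not called, at -0.35 with an interval from -0.72 to 0.03. The remaining fibrillar genes were low in both lines. COL11A2, a type XI chain, had 33 to 47 counts a library and a log2 fold change of -0.001 (interval from -0.71 to 0.71), and COL24A1 had 71 to 148 counts and 0.13 (from -0.31 to 0.56). COL11A1 had 2 counts in all.

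The FACIT collagens, which have interrupted helices and decorate the surface of fibrils, were the class with the lowest summed level relative to WT. Of 10 genes, 7 had 20 or more counts, of which 0 were up-regulated, 2 were down-regulated (COL14A1 and COL12A1) and 5 were not called, against the same shares of 9.32% and 10.9%, so that 0 up-regulated genes of 7 is near the background. The summed FPKM was 5.25 and 5.37 in WT and 3.66 and 3.92 in Helz-null cells, and COL14A1 made up most of it. COL14A1, a fibril-associated collagen of tendon and skin, was at 20 and 21.3 CPM in WT and 12.1 and 12.8 CPM in Helz-null cells, and fell by 0.72 ± 0.076 on the log2 scale (SE; edgeR, adjusted p = 3.26e-10). This was the largest decrease among the 16 collagen genes of the study's selection. COL12A1, a close relative of COL14A1 in domain structure, was much lower, with 96 and 86 counts in WT and 16 and 50 in Helz-null libraries. It was outside the selection and fell by 1.61 ± 0.29 in the fit over all genes with 20 or more counts (SE; edgeR, adjusted p = 4.31e-05). The Helz-null replicates of COL12A1 differed from each other, at 0.378 and 0.701 CPM, and both lay below the WT values of 1.49 and 2.06 CPM. Without Helz-null replicate 2 the log2 fold change was -2.20, and without Helz-null replicate 1 it was -1.32, with the call kept in both cases.

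The type IX chains are FACITs of cartilage fibrils. COL9A2 was at 0.913 and 0.989 FPKM in WT and 1.04 and 1.05 FPKM in Helz-null cells, with a log2 fold change of 0.14 and a 95% interval from -0.19 to 0.48. COL9A3 was at 0.72 and 0.665 FPKM in WT and 0.39 and 0.491 FPKM in Helz-null cells, a log2 fold change of -0.63 that did not pass the threshold (edgeR, adjusted p = 0.035). The exons of COL9A3 share 155 bases with those of TCFL5 on the other strand, which rose by 0.34, so reads of that stretch may be counted for either gene. COL9A1 had 3 counts in all. Of the remaining FACIT genes with 20 or more counts, COL16A1, COL19A1 and COL21A1 had totals of 174, 188 and 76 counts and were not called, with log2 fold changes of 0.30, -0.30 and 0.36. Their replicates spread widely, since without a single library COL21A1 ranged from -0.052 to 1.17 and COL16A1 from -0.095 to 1.07. The exons of COL19A1 share 85 bases with those of LMBRD1 on the other strand, which had 746 to 1426 counts a library.

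The multiplexins are basement membrane collagens that carry sugar chains and whose ends can be cleaved into fragments that inhibit blood vessel growth, such as endostatin from the COL18A1 product. COL18A1 (chr21:46825080-46933634, GRCh37) was at 127.8 and 136.7 CPM in WT and at 102.5 and 101.8 CPM in Helz-null cells. It fell by 0.37 ± 0.035 on the log2 scale (SE; edgeR, adjusted p = 2.64e-11), the smallest adjusted p of the collagen decreases. COL18A1 thus moved against COL4A1 and COL4A2, the other abundant basement membrane collagens. The 20 genes nearest to it that were tested had a median of 0.090. Its exons share 1563 bases with SLC19A1 on the opposite strand, so reads of that stretch may be counted for either gene. SLC19A1, a folate transporter gene, had a log2 fold change of -0.007 (95% interval from -0.08 to 0.06). COL15A1, the other multiplexin, had 12 and 8 counts in WT and 13 and 34 in Helz-null libraries, and its log2 fold change of 1.09, with an interval from 0.05 to 2.13, was not called (edgeR, adjusted p = 0.102).

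The transmembrane collagens are anchored in the plasma membrane and can be shed from it. Of 4 genes, 3 had 20 or more counts, and COL13A1 and COL23A1 were up-regulated, beside 9.32% of all genes fitted. COL13A1, a component of the neuromuscular junction, was at 5.67 and 6.51 CPM in WT and at 8.82 and 7.56 CPM in Helz-null cells, and rose by 0.43 ± 0.12 (SE; edgeR, adjusted p = 0.0026). At 1.79 and 2.06 FPKM in WT it lay at the study's selection threshold, and its call was lost with DESeq2, with GC offsets, without WT replicate 1 and without Helz-null replicate 1, at log2 fold changes between 0.32 and 0.43. COL23A1 had 51 and 38 counts in WT and 82 and 183 in Helz-null libraries, or 0.794 and 0.909 against 1.94 and 2.57 CPM. It was outside the selection and rose by 1.44 ± 0.24 (SE; edgeR, adjusted p = 9.64e-06), and it stayed between 1.2 and 1.6 when any library was left out. COL25A1, which encodes a membrane collagen found in brain and needed for motor axons to reach muscle, was at 15.8 and 16.2 CPM in WT and 13.7 and 15.8 CPM in Helz-null cells and was not called, at -0.096 with an interval from -0.26 to 0.06.

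COL26A1, a small collagen of the extracellular matrix of developing reproductive organs that belongs to none of these classes, rose most among the 16 genes of the selection. It was at 7.78 and 7.35 CPM in WT and at 11.7 and 12.6 CPM in Helz-null cells, or 2.57 and 2.42 against 3.87 and 4.15 FPKM. The log2 fold change was 0.69 ± 0.096 (SE; edgeR, adjusted p = 1.77e-07) and stayed between 0.63 and 0.74 when any library was left out. When a change of more than 1.2-fold was required, COL26A1 and COL14A1 were the 2 collagen genes of the selection still called, and COL23A1 and COL12A1 joined them in the fit over all genes with 20 or more counts.

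Collagens of further classes were scarcely expressed in either line. COL7A1, which forms the anchoring fibrils beneath stratified epithelia, had 88 and 34 counts in WT and 53 and 48 in Helz-null libraries, with a log2 fold change of -0.29 (95% interval from -0.92 to 0.34) beside a median of -0.26 for its 20 nearest tested genes. The short-chain network collagens COL8A1 and COL8A2, of corneal and vascular endothelium, had totals of 22 and 42 counts and log2 fold changes of -0.39 (interval from -2.16 to 1.38) and 0.069 (from -1.16 to 1.30). With intervals this wide, changes of the size seen in the abundant collagens were not detectable at this depth. The 8 genes under 20 counts had totals of 2 to 17 counts and were not tested. They were COL1A2, COL9A1, COL10A1, COL11A1, COL17A1, COL20A1, COL22A1 and COL28A1. COL10A1, the short-chain collagen of hypertrophic cartilage, had 0 and 0 counts in WT and 8 and 5 in Helz-null libraries. COL22A1, a FACIT of tissue junctions, had 2 and 3 counts in WT and 0 and 0 in Helz-null libraries. No fold is given for either gene, since the sources do not say whether both mates of a read pair were counted, and the number of fragments behind so few counts is then unknown.

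The chromosomal surroundings of the other called collagen genes were near 0. Apart from COL4A6, the median log2 fold change of the 20 nearest tested genes was between -0.070 and 0.090 for every called collagen gene, and it was at 0.087 for COL6A2, whose own value was 0.17.

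Collagen chains depend on a set of enzymes and chaperones in the endoplasmic reticulum, on proteinases and oxidases outside the cell, and on receptors that sense the finished matrix. In 5 lists of such genes, 74 in all, 40 were in the study's selection, of which 11 were up-regulated, 7 were down-regulated and 22 were not called, with a median log2 fold change of 0.024. In the fit over all genes with 20 or more counts, 13 of 67 were up-regulated and 8 down-regulated. The shares of all genes called, given above, apply here as well.

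The modifying enzymes and chaperones, which hydroxylate, glycosylate, fold and export procollagen, were called in both directions, with 2 of 17 up-regulated, 4 down-regulated and a median of 0.010, beside 13.9% and 15.5% of all selected genes. SERPINH1, the collagen-specific chaperone HSP47, was not called, at 152.8 and 153.6 CPM in WT and 154.1 and 154.6 CPM in Helz-null cells (log2 fold change 0.014, 95% interval from -0.05 to 0.08). P4HB, the shared subunit of prolyl 4-hydroxylase, was not called either, at 0.036. Among the called genes, the prolyl 3-hydroxylase P3H1 rose by 0.19 and the lysyl hydroxylase PLOD3 by 0.18. P3H3, a relative of P3H1, was at 39.2 and 38.4 CPM in WT and 31.7 and 30.3 CPM in Helz-null cells, and fell by 0.33 on the log2 scale. MIA3, which helps to load procollagen into transport carriers, fell by 0.24, beside a median of -0.40 for its 20 nearest tested genes on chromosome 1. The other 2 called genes were PLOD1 at -0.17 and CRTAP at -0.14, the latter beside a median of -0.16 for its 20 nearest tested genes, and both are named after their values were seen, as are SERPINH1 and P4HB.

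Of the procollagen proteinases and crosslinking enzymes, 2 of 9 were up-regulated and 1 was down-regulated, with a median of -0.008. BMP1, the main C-proteinase of fibrillar procollagens, was at 10.5 and 11 CPM in WT and 13.8 and 14.6 CPM in Helz-null cells, and rose by 0.41 ± 0.085 (SE; edgeR, adjusted p = 1.13e-04). LOXL2, a lysyl oxidase that crosslinks collagen, rose by 0.40, and PCOLCE2, an enhancer of procollagen C-proteinase, fell by 0.34. Outside the selection and named after their values were seen, ADAMTS2, the N-proteinase of fibrillar procollagens, rose by 0.51, and TLL1, a relative of BMP1, fell by 1.67 beside a median of -0.54 for its 20 nearest tested genes.

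Of 5 collagen receptors in the selection, 3 were up-regulated and 0 down-regulated, with a median of 0.19, whereas the median over the 12 with 20 or more counts was 0.053, with 6 of 12 above 0 and 9 not called. DDR2, a receptor tyrosine kinase for fibrillar collagens, was at 21.7 and 25.6 CPM in WT and 34.9 and 34.9 CPM in Helz-null cells, and rose by 0.57 ± 0.063 (SE; edgeR, adjusted p = 6.37e-10). MRC2, an endocytic receptor that takes up collagen fragments, rose by 0.46, and ITGB1, the beta subunit of the collagen-binding integrins, by 0.12. Of 5 collagen-degrading enzymes and inhibitors, 2 were up-regulated and 0 down-regulated, with a median of 0.30, but over the 11 genes with 20 or more counts the median was -0.054, with 2 up-regulated and 9 not called. MMP2, a gelatinase that also cleaves type IV collagen, was at 10.3 and 9.72 CPM in WT and at 20 and 19.2 CPM in Helz-null cells, and rose by 0.96 ± 0.080 (SE; edgeR, adjusted p = 5.05e-13). TIMP2, an inhibitor of metalloproteinases that also takes part in MMP2 activation, rose by 0.57.

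The matrix proteins that bind collagen moved in both directions, with 2 of 4 up-regulated, 2 down-regulated and a median of 0.12 in the selection, and a median of 0.36 over the 11 with 20 or more counts. SPARC, a calcium-binding glycoprotein that binds fibrillar and type IV collagens, had a larger log2 fold change than any collagen gene called. It was at 41.8 and 40.5 CPM in WT and at 125.2 and 127.7 CPM in Helz-null cells, and rose by 1.62 ± 0.039 (SE; edgeR, adjusted p = 2.88e-30). The nidogens, which bridge type IV collagen and laminin, went apart. NID2 rose by 0.37, while NID1 fell by 0.14 beside a median of -0.45 for its 20 nearest tested genes. FN1, fibronectin, fell by 0.32 on the log2 scale. HSPG2, the basement membrane proteoglycan perlecan, was outside the selection and rose by 0.39, and it is named after its value was seen.

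**Figure D3:**
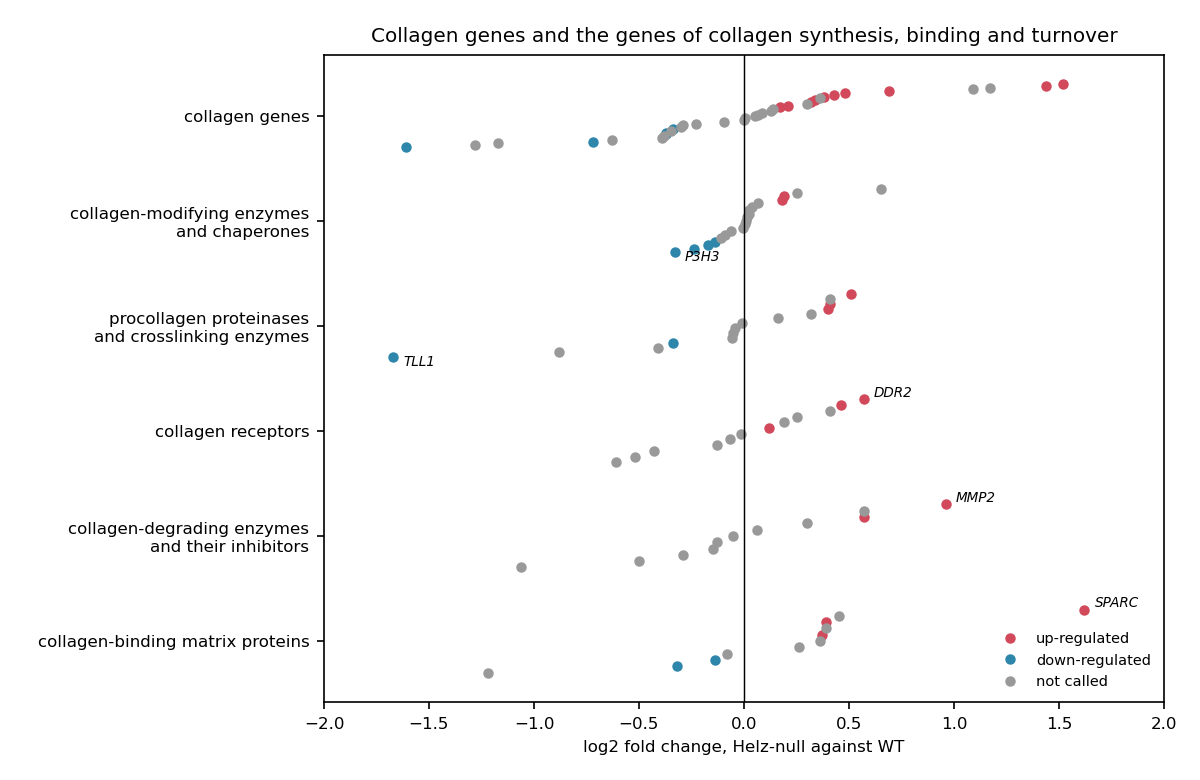
Log2 fold changes in Helz-null against WT cells of the 36 tested collagen genes and of the tested genes of 5 related lists, 1 point for each gene, spread vertically by rank within its row (red, up-regulated; blue, down-regulated; grey, not called). In each related list the gene with the largest absolute change among those called is named; SPARC lies furthest to the right at 1.62, and P3H3 lies at -0.33.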

How the data were processed

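RNA from 2 WT and 2 Helz-null libraries was prepared by the authors with a TruSeq RNA kit that does not mark strand and sequenced in pairs. Per the methods and labels, the authors removed ribosomal reads with Bowtie2, mapped to hg19 with TopHat2 and obtained the deposited counts per gene with QuasR (versions are not given in the sources used here, nor is use of strand or whether both mates were counted). The authors also deposited their own edgeR comparison, which gives p-values and false discovery rates beside log2 expression and log2 fold changes for 10978 genes selected at FPKM above 2. Only its gene names were used.

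Deposited counts were tested in edgeR 4.0.16 (R 4.3.3) with TMM scaling and the quasi-likelihood F test, with Benjamini-Hochberg adjustment over all genes fitted and a threshold of 0.005. One fit held the 10978 selected genes and gave the values of the 16 collagen genes among them, and another held 16876 genes with 20 or more counts and gave those of the other 20. Library sizes were the column totals. CPM and FPKM were computed from the counts, the TMM sizes of the second fit and the deposited gene widths. The replicates are biological per the study's methods, with no word on separate cultures, so p-values measure only the spread between these libraries. Counting intervals and floors cover counting error only. Alternatives were DESeq2 1.42.0, other scalings and filters, GC offsets, halved counts, a required 1.2-fold change, a replicate block and leaving out each library.

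Positions came from GENCODE 44 on GRCh37, matched for 22723 genes by symbol and 1230 by an older symbol, with 3058 unmatched. Every collagen gene with 20 or more counts is named, with up to 4 called genes of each related list by absolute log2 fold change, SPARC, and HELZ. The members and lists were chosen with earlier results of these data known.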

Additional observations from a re-analysis of the deposited data

How the results depend on the processing

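Genes under 20 counts were not tested, and intervals were wide for genes of low counts. No called collagen gene changed direction under the alternatives run, and of 462 values over single genes and settings 439 kept their direction and side of the threshold or moved within the replicate spread. When any library was left out, up-regulated collagen genes in the selection ranged from 4 to 9 beside 8. When a change of more than 1.2-fold was required, 1 collagen gene was up-regulated and 1 down-regulated in the selection. Among genes with 20 or more counts, 2 collagen genes were up-regulated and 2 down-regulated in this setting. Of the 40 genes of the related lists in the selection, 5 up-regulated and 0 down-regulated genes were left. Related genes outside the selection with 20 or more counts were fitted in this setting but are not counted here. That test asks for more than a difference from 0. DESeq2 gave 6 up-regulated and 4 down-regulated collagen genes, GC offsets 6 and 4, scaling by library totals 9 and 4, and a threshold of 0.05 gave 9 and 4. Same-numbered libraries did not deviate together (correlation 0.034 across 10978 genes), so the numbers were not treated as pairs. With a replicate block 8 collagen genes were up-regulated and 4 down-regulated in the selection, and 10 and 5 among genes with 20 or more counts.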
